A study of Rattus norvegicus with 4 samples.

Results

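The cadherins and protocadherins of the neonatal rat prefrontal cortex were examined as a family of 68 genes, taken from the 17419 transcripts (14008 of them known genes with an NCBI Gene ID) that the deposited expression tables list. A gene was a member when its symbol was Cdh followed by a number, or began with Pcdh. Cdh5, the cadherin of vessel walls, was kept out and is described with the markers of endothelium. The members were 4 type I cadherins, 9 type II cadherins, 5 atypical cadherins, 15 alpha, 11 beta and 14 gamma clustered protocadherins, and 10 solitary protocadherins, of which 3 were delta 1, 4 delta 2 and 3 of other kinds. Dams of the rat strain given as Wistar in the labels and Wistar Furth in the methods received 5000 µg/kg bisphenol A (BPA, the monomer of polycarbonate plastic, which can bind estrogen receptors) or vehicle control every day of gestation from day 1, and polyadenylated RNA of frontal cortex was taken from male and female pups at postnatal day 1. There was 1 library for each sex and treatment, and 4 values given in a row stand for male control, male BPA, female control and female BPA, in that order. The methods name 3 pups of independent litters for each sex and treatment, and neither they nor the labels say whether a library held the RNA of 1 or several of them. By the methods' counts of dams and litters, male and female pups of a treatment could come from the same litters. Values are FPKM, the fragments mapped to a transcript divided by its length and by the library's depth, and the lowest value in the tables is 0.01.

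Within a sex, 1 library stood against 1, so those differences have no replicate check. With the sexes combined, the male and female library of a treatment served as its 2 replicates (n = 2), and the spread behind the p-values is that between the libraries of a treatment, moderated by limma with that of all transcripts, and holds no spread between animals of a sex. Where those 2 libraries share litters, that spread also leaves out the spread between litters. The depth, recovered from the steps between low FPKM values, lay between 8949750 and 9253500 fragments per library, and intervals built on it cover counting error only. Listed in all 4 libraries were 65 members. Cdh16 and Cdh17 were listed in the female libraries only and Cdh26 in the male libraries only, none of them above 0.05 FPKM.

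Cadherins are calcium-dependent adhesion proteins that bind the same or a related cadherin on the neighboring cell. Type I and type II cadherins hold on to the actin skeleton through catenins, and the combination a neuron carries is known to guide its sorting into layers and nuclei and its choice of synaptic partners. Protocadherins lack the catenin-binding tail. The alpha, beta and gamma protocadherins lie side by side in 1 gene cluster, where each variable first exon has its own promoter, and single neurons use different combinations of them as a molecular identity that lets branches of the same cell avoid each other. Solitary protocadherins lie elsewhere and take part in cell movement, axon outgrowth and remodeling of synapses.

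To determine how strongly each family was used in this tissue, FPKM values were compared between members. The highest levels belonged to Cdh13, Pcdhgc3 and Cdh2, with mean FPKM over the 4 libraries of 95.4, 95.3 and 85.7. Cdh13 (T-cadherin, held in the membrane by a lipid anchor), Pcdhgc3 (a C-type gamma protocadherin) and Cdh2 (N-cadherin, the main cadherin of neural tissue) could be ordered in part. Cdh2 (83.7 to 89.2 FPKM) lay below both others in every library, while Pcdhgc3 (87.9 to 100.2 FPKM) lay below Cdh13 (91.2 to 99.3 FPKM) in all libraries except that of BPA females. The median member had a mean of 3.92 FPKM, against a median of 12.2 among solitary, 3.92 among clustered protocadherins and 3.02 among cadherins. The cadherins were the most uneven, running from 0.02 FPKM for Cdh17 to 95.4 FPKM for Cdh13. In the limma fit 59 members could be tested. Cdh3, Cdh15, Cdh19, Cdh23, Pcdhac1 and Pcdhgc5 were in every library but under a mean of 1 FPKM.

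**Figure D1:**
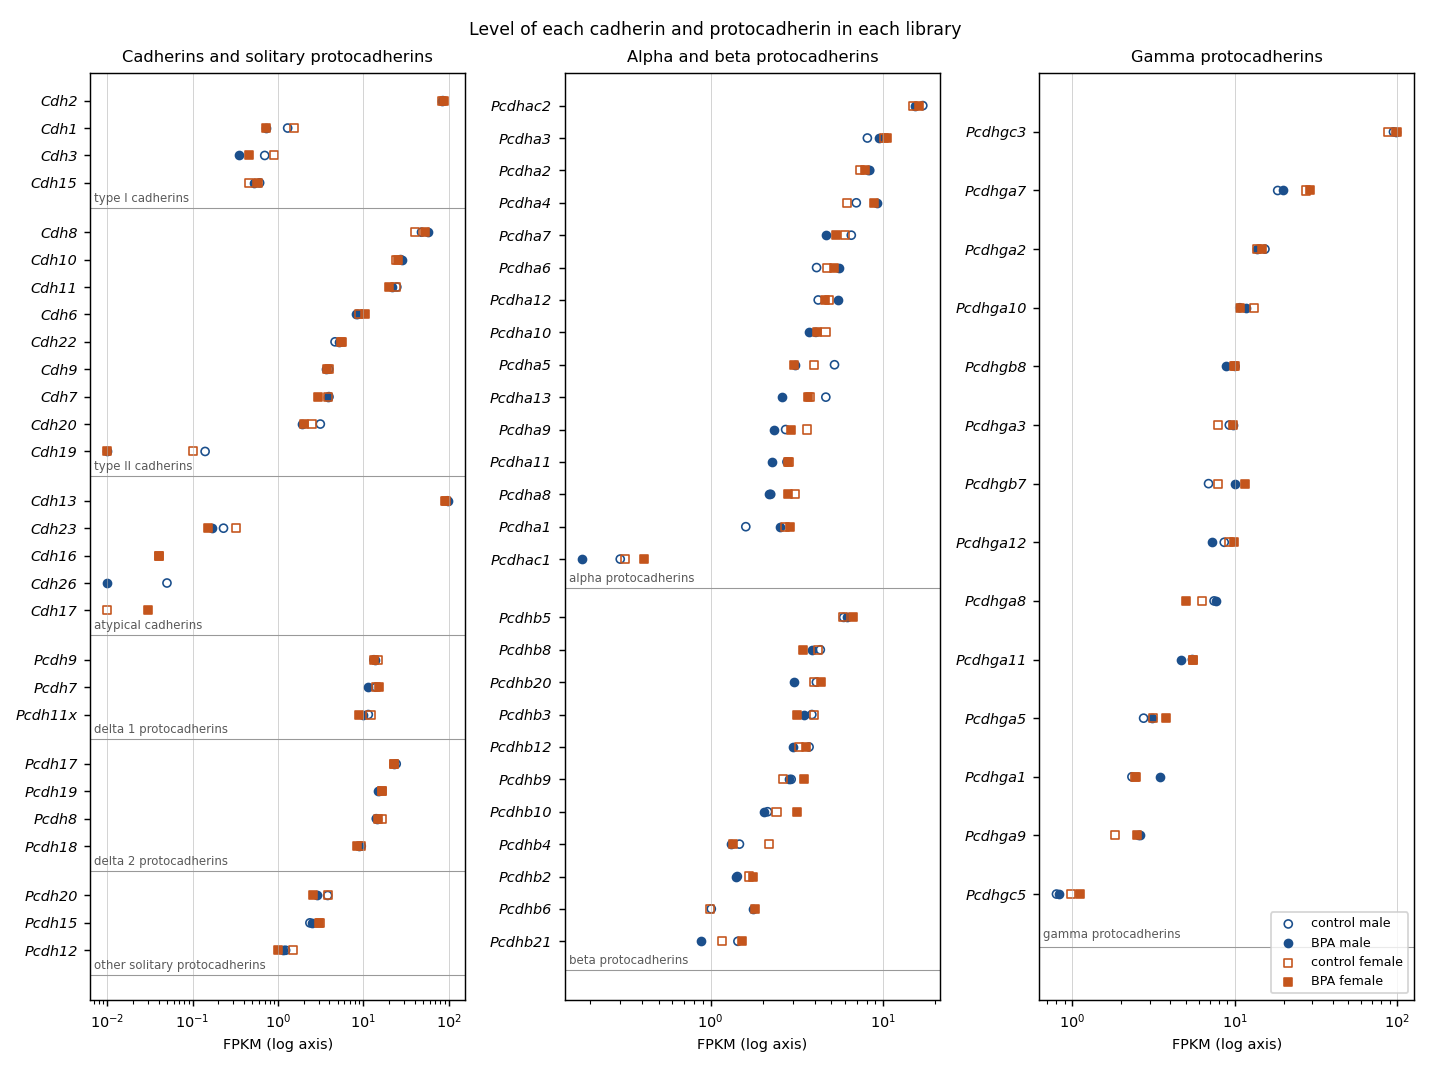
FPKM of the 68 members in each library on a log axis, grouped by family and ordered by mean level within it, with open symbols for control, filled symbols for BPA, circles for males and squares for females. The 4 libraries lie close together for most members, and Cdh13, Pcdhgc3 and Cdh2 stand at the upper end of their panels.

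Prenatal BPA was then compared with control in the 2 libraries of each treatment by limma on log2(FPKM + 0.5), with Benjamini-Hochberg adjustment over all 13163 transcripts whose FPKM averaged 1 or more. None of the 59 members passed an adjusted p of 0.05 (0 of 59). Across all transcripts, 0.562% passed, and the smallest adjusted p of a member was 0.141, that of Pcdhgb7. At an unadjusted p under 0.05 stood 7 members (11.9%), 3 higher and 4 lower with BPA, against 17.3% of all transcripts. The 3 were Pcdhgb7, Pcdha4 and Cdh8, and the 4 were Pcdha5, Pcdh20, Pcdh11x and Cdh11. These p values do not show that the families were the same in both treatments. The 95% interval of the log2 ratio stayed within -0.5 and 0.5 for 24 members and within -1 and 1 for 57 of 59, and the exceptions were Cdh1 and Pcdhb6.

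The members' direction was near that of the transcriptome. The median log2 ratio of BPA to control was -0.04 over the members and -0.04 over all transcripts, and 59.3% of members had a ratio under 0, against 58.1% of transcripts. Both BPA libraries lay above both control libraries for 9 members (18.7% of all transcripts did so), below them for 16 members (31.9%), and overlapped with them for 34. Cadherins had a median of -0.01 and clustered protocadherins one of -0.02, which turned to 0.06 and 0.04 when each library was centered on its median. Solitary protocadherins had a median of -0.08, or -0.01 after centering, and 9 of their 10 members had a ratio under 0 before it. Male and female log2 ratios had the same sign for 37 of 59 members (62.7%), 21 lower and 16 higher in both sexes, against 66.0% of all transcripts.

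**Figure D2:**
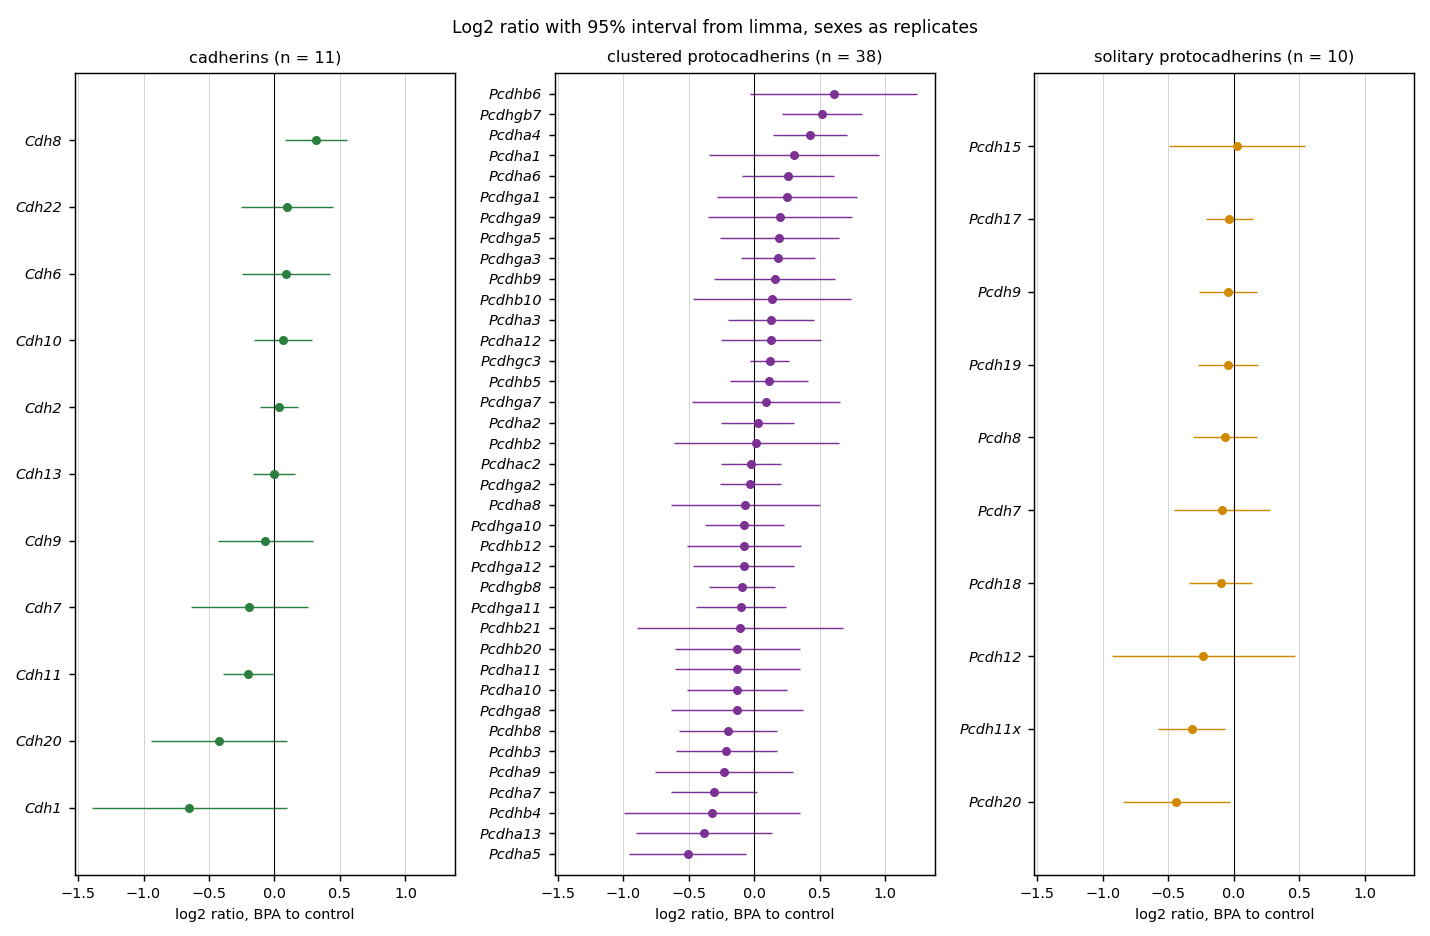
Log2 ratio of BPA to control of the 59 tested members with its 95% interval from limma, the sexes serving as replicates, for cadherins (11), clustered protocadherins (38) and solitary protocadherins (10). Most intervals cross 0, and those of Cdh8, Pcdhgb7 and Pcdha4 lie above it while those of Cdh11, Pcdha5, Pcdh11x and Pcdh20 lie below it before adjustment.

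Each sex was also examined on its own. Here 2-fold means an absolute log2 ratio of at least 1 after 0.5 was added to each FPKM, which shrinks the ratios of scarce genes. By that measure no member differed by 2-fold among the 66 listed in males (4.28% of all transcripts and 1.49% of known genes did) or the 67 listed in females (5.15% and 2.43%). By FPKM alone, Cdh1 in females (1.55 to 0.72), Cdh3 in males (0.7 to 0.35) and Cdh23 in females (0.32 to 0.15) fell by 2-fold or more. Some members near the lowest value of 0.01 FPKM changed as much. Between the control male and control female library, which differ in sex but not in treatment, 0 of 65 members reached 2-fold (3.1% of all transcripts and 0.614% of known genes), and between the BPA libraries 0 of 65 did (3.14% and 0.798%). At a lower threshold of 0.5 on the log2 scale, 7 of 66 members passed in males (14.6% of all transcripts and 9.75% of known genes) and 6 of 67 in females (17.5% and 13.1%). Those above it in both sexes were Pcdhb6 and Pcdhgb7, and the one below it in both sexes was Cdh1. In males Pcdha1 was also above it and Cdh20, Pcdha5 and Pcdha13 below it. In females Cdh3, Pcdhb4 and Pcdh20 were also below it.

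Fragment numbers gave a second view of the same pairs. An exact binomial test of the recovered fragments of a pair of libraries, called here the fragment test, passed at an adjusted p of 0.05 for 14 of 66 members in males (21.9% of all transcripts and 18.3% of known genes) and for 14 of 67 in females (22.4% and 19.0%). It also passed for 7 of 65 members between the control libraries (10.4% of all transcripts and 6.23% of known genes) and for 10 of 64 between the BPA libraries (12.8% and 8.98%), where treatment did not differ. In both sexes 5 of 65 members passed (11.3% of all transcripts and 8.92% of known genes). Cdh8, Pcdha4 and Pcdhgb7 were higher with BPA in both sexes (3.43% of all transcripts and 2.78% of known genes passed in that way), and Cdh11 and Pcdh11x were lower in both (6.17% and 5.86%). The test knows no spread between animals, and each of its values compares those libraries, not the conditions.

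**Figure D3:**
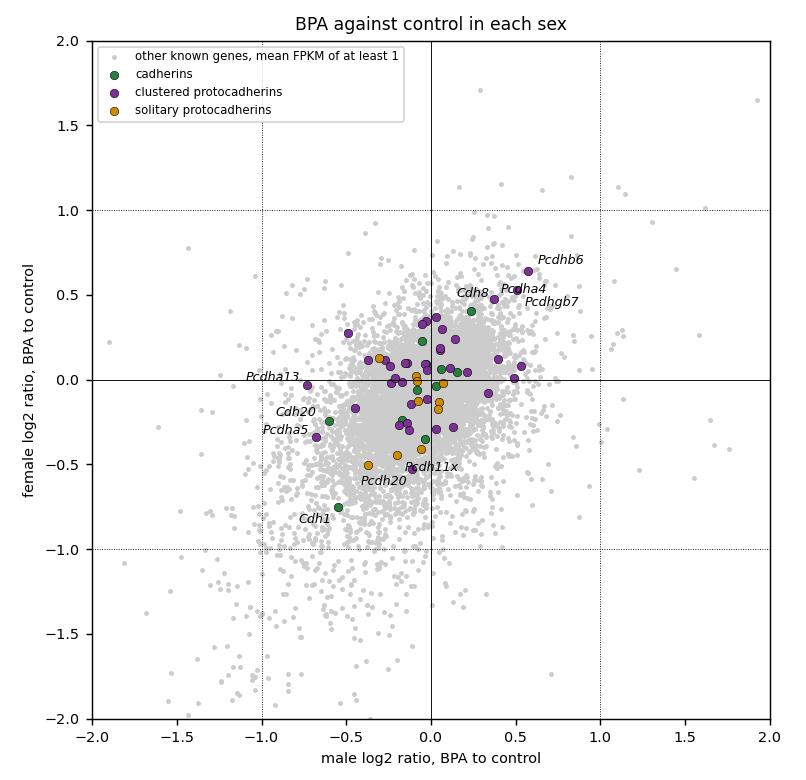
Log2 ratio of BPA to control in males (x axis) and females (y axis) for the 59 tested members, colored by group, over 10573 other known genes in grey, with dotted lines at 2-fold. All members lie inside the 2-fold lines, Pcdhb6, Pcdhgb7, Pcdha4 and Cdh8 toward the upper right and Cdh1 and Pcdh20 toward the lower left, and 22 of the other genes lie outside the axes.

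Among type I cadherins, Cdh2 carried most of the signal and differed little between treatments, while the epithelial cadherins Cdh1 and Cdh3 were scarce and lower in both BPA libraries. Cdh2 (NCBI Gene 83501) had 85.8 FPKM (control) and 84.2 FPKM (BPA) in males and 83.7 and 89.2 FPKM in females, and the groups overlapped. Its limma log2 ratio was 0.03 with a standard error of 0.06, and the interval of its fold ran from 0.925 to 1.13. Cdh1 (E-cadherin, NCBI Gene 83502) had 1.3 FPKM (control) and 0.73 FPKM (BPA) in males and 1.55 and 0.72 FPKM in females. Both BPA libraries were about equal and lay below both controls. The mean was 1.43 ± 0.177 FPKM in control and 0.725 ± 0.00707 with BPA (SD, n = 2), and the log2 ratio of -0.65 (standard error 0.304) had a limma adjusted p of 0.33. These levels rested on 52.2, 29.0, 60.1 and 28.1 fragments in the same order, and the fragment test gave an adjusted p of 0.0656 in males and 0.00549 in females.

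Cdh3 (P-cadherin), too low for the limma fit, had 0.7 FPKM (control) and 0.35 FPKM (BPA) in males and 0.89 and 0.46 FPKM in females. The groups did not overlap, but the fragment ratio of BPA to control was 0.504 in males with an interval from 0.221 to 1.08, and 0.516 in females with an interval from 0.25 to 1.02. Cdh15 (M-cadherin, known from muscle) lay between 0.46 and 0.61 FPKM in the 4 libraries, and the groups overlapped. In bulk tissue, fewer cells of a type and less RNA per cell cannot be told apart for any of these genes.

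Among the type II cadherins, Cdh8 was higher in both BPA libraries, and Cdh11 and Cdh20 were lower in both. Cdh8 (NCBI Gene 84408), a type II cadherin of cortical and striatal neurons, had 48.2 FPKM (control) and 56.8 FPKM (BPA) in males and 40.3 and 53.4 FPKM in females. Both BPA libraries lay above both control libraries, with means of 44.2 ± 5.62 FPKM in control and 55.1 ± 2.37 with BPA (SD, n = 2). The fold of 1.25 had a 95% interval from 1.06 to 1.47, and the limma log2 ratio of 0.32 (standard error 0.0966) had an unadjusted p of 0.016 and an adjusted p of 0.196. On fragments the ratio was 1.18 (1.1 to 1.26) in males and 1.33 (1.24 to 1.42) in females. The control libraries differed from each other as well, the female to male ratio of Cdh8 fragments being 0.835 (fragment test, adjusted p 1.9e-05).

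Cdh11 (OB-cadherin, a type II cadherin of mesenchyme and developing brain) had 24.8 FPKM (control) and 21.9 FPKM (BPA) in males and 23.9 and 20.2 FPKM in females. The BPA libraries were the lower ones, by a log2 ratio of -0.20 (standard error 0.0776, limma adjusted p 0.26). Cdh10, one of the most abundant type II cadherins beside Cdh8 and Cdh11, had 27.5, 28.6, 24.6 and 25.7 FPKM in that order, and the treatments overlapped. Cdh20 had 3.14 FPKM (control) and 1.9 FPKM (BPA) in males and 2.5 and 2.03 FPKM in females. Both BPA libraries were below both controls, with a log2 ratio of -0.42 (standard error 0.212, limma adjusted p 0.356). Cdh7 and Cdh9 also lay lower in both BPA libraries without reaching an unadjusted p of 0.05, and Cdh6 and Cdh22 overlapped. Cdh19, known from Schwann cell precursors, was at 0.14 (males) and 0.1 FPKM (females) in the control libraries and at the lowest value of 0.01 in both BPA libraries. It rested on 2.9 and 2.0 fragments in the controls, at or under the floor of 3 fragments, so no fold is given.

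Of the atypical cadherins, Cdh13 alone was abundant, with 97.3 FPKM (control) and 99.3 FPKM (BPA) in males and 93.8 and 91.2 FPKM in females. Its limma log2 ratio was -0.01 and its fold had an interval from 0.892 to 1.11. Cdh23, a part of the tip links of hair cells, had 0.23, 0.17, 0.32 and 0.15 FPKM in the 4 libraries. The BPA libraries were lower, and on 14.7 to 31.1 fragments the fragment test gave adjusted p of 0.706 in males and 0.0928 in females. Cdh16 was listed at 0.04 FPKM in both female libraries, which is 1.0 fragment each.

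**Figure D4:**
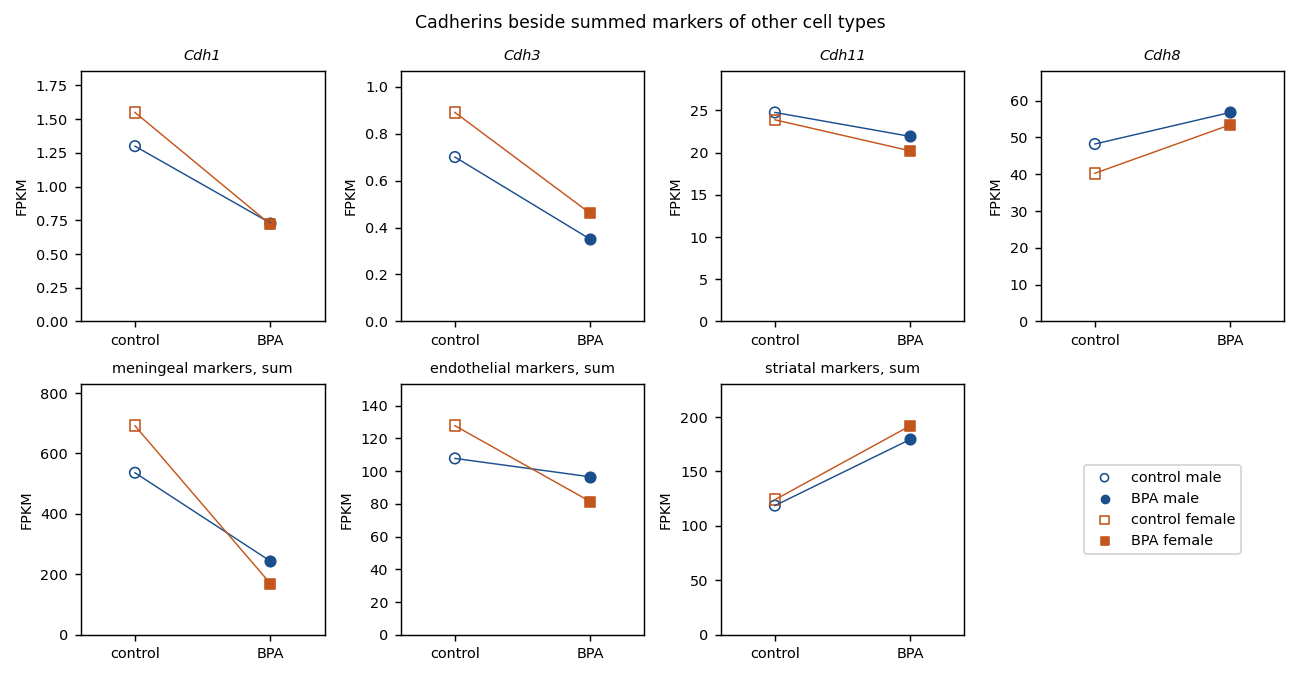
FPKM of Cdh1, Cdh3, Cdh11 and Cdh8 in control and BPA libraries (upper row) and summed FPKM of the marker lists of meninges, endothelium and striatum (lower row), with a line joining the 2 libraries of a sex and all axes starting at 0. Cdh1, Cdh3, Cdh11 and the meningeal and endothelial sums are lower in both BPA libraries, and Cdh8 and the striatal sum are higher in both. The other members and the other marker lists are not drawn.

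Markers of other cell types were read in the same libraries. Their lists were written with earlier results of these data known, so their counts give no independent support. The sums of some lists were lower with BPA, those of some were higher, and those of others overlapped. All 16 markers of the meninges, the connective sheaths of the brain, lay lower in both BPA libraries (31.9% of all transcripts did), and 9 of 16 passed limma at an adjusted p of 0.05 (0.456% of all transcripts fell in that way). The 9 were Igf2, Cldn11, Gjb2, Slc6a13, Slc22a6, Col1a1, Col1a2, Col3a1 and Dcn, genes of connective tissue, barrier channels and solute transport. The summed FPKM of all 16 ran from 536 to 692 in the control libraries and from 170 to 244 in the BPA libraries. None of the 16 was at 0, the lowest value being 0.42 FPKM (Foxd1, BPA female). The dissection, as the methods describe it, took the meninges off. Of 7 endothelial markers listed, Cldn5 and Slc2a1 the most abundant, 5 were lower in both BPA libraries (31.9% of all transcripts were) and 0 passed, with sums of 108 to 128 FPKM in control and 81.4 to 96.6 FPKM with BPA. Cdh5 itself, the vessel wall cadherin kept out of the members, had 11.5, 8.14, 13.2 and 6.03 FPKM (log2 ratio -0.77, limma adjusted p 0.111). The part of meninges and vessels in the lower Cdh1, Cdh3 and Cdh11 was not tested.

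Of 11 markers of striatal neurons, 10 were higher in both BPA libraries (18.7% of all transcripts were) and 2, Penk and Rxrg, passed (0.106% of all transcripts rose in that way). Their sums were 119 and 124 FPKM in the control libraries and 179 and 192 FPKM in the BPA libraries. The 9 markers of cortical neurons had sums of 544 and 532 FPKM in the control and 608 and 596 FPKM in the BPA libraries of males and females. Of the 9, 3 lay higher in both BPA libraries (18.7% of all transcripts did), 6 overlapped, and Neurod2 was the single one that passed (0.106% of all transcripts rose in that way). The part of striatal cells and cortical neurons in the higher Cdh8 was not tested. Of 4 tested olfactory bulb markers, Cdhr1 and Slc17a7 passed and were lower with BPA (0.456% of all transcripts fell in that way), while Reln overlapped. The 7 listed markers, of which these 3 were the most abundant, summed to 129 and 146 FPKM in control and 79.6 and 81.3 FPKM with BPA, and Doc2g, at 0.38 and 0.31 FPKM in control and 0.69 and 0.47 FPKM with BPA, lay the other way. None passed among 8 interneuron markers such as Sst and Npy, whose sums of 295 to 341 FPKM overlapped between treatments. None passed either among 7 markers of the oligodendrocyte lineage such as Olig1 and Pdgfra, whose sums were 103 and 115 FPKM in control and 91.8 and 95.4 FPKM with BPA. Of these 7, 3 lay lower in both BPA libraries (31.9% of all transcripts did) and the others overlapped. Olig2, Sox10 and Cspg4 had log2 ratios above 0, at 0.07, 0.15 and 0.06. The 7 choroid plexus markers, of which Kcne2 and Aqp1 were the highest, summed to 2.19 to 3.26 FPKM with overlap, and the single one tested, Kcne2, did not pass.

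The clustered protocadherins were measured as 40 members. Their summed level was close between treatments and no isoform passed the test. The alpha members summed to 78.8 FPKM (control) and 76.6 FPKM (BPA) in males and 79.2 and 81.0 FPKM in females. The beta members summed to 32.3, 29.8, 32.3 and 34.3 FPKM in the same order, and the gamma members to 196, 202, 198 and 216 FPKM. In alpha and beta the treatments overlapped, and in gamma both BPA sums lay above both control sums. Alpha isoforms share their constant exons with each other, as gamma isoforms do, so the fragments of those exons were divided among isoforms by the authors' estimation and each isoform's value is uncertain. The beta genes hold no such shared exons, but are close copies of each other. Limma called 0 of 38 tested isoforms (0.562% of all transcripts were called). The median log2 ratio was -0.04 in alpha, -0.08 in beta and 0.09 in gamma, against -0.04 over all transcripts.

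Because each isoform starts from a promoter of its own, stretches of promoter sequence are shown for 5 isoforms described below whose promoter holds a word shared within its family. RefSeq (build GRCr8) gave promoters for 44 of the 68 members, among them 11 of 11 beta, 13 of 14 gamma and 1 of 15 alpha isoforms. The beta and gamma promoters lie on the plus strand of chromosome 18. The 10-base words GGTGGCGCTG and GCTGTTCACC, found by a search among these promoters, are in capitals, and 50 bases are shown from 5′ to 3′.
Pcdhb5: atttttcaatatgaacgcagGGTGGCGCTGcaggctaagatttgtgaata
Pcdhb6: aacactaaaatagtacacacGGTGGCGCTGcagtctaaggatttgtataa
Pcdhb8: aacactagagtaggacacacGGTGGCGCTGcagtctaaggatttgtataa
Pcdhga7: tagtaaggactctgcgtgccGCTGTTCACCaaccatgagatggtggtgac
Pcdhga10: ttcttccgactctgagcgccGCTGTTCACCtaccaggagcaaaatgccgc
These stretches lie at chr18:29302394-29302443 for Pcdhb5, chr18:29320142-29320191 for Pcdhb6, chr18:29339248-29339297 for Pcdhb8, chr18:29794201-29794250 for Pcdhga7 and chr18:29825810-29825859 for Pcdhga10, upstream of the annotated gene start. The word GGTGGCGCTG stood in the 250 bases before the start of 11 of 11 beta promoters, on either strand (reverse complement CAGCGCCACC), in 0 of the 33 other members with a promoter and in 63 of all 33469 promoters (0.188%). The word GCTGTTCACC (reverse complement GGTGAACAGC) stood in 7 of 13 gamma promoters, in 0 of the 31 others and in 30 of all promoters (0.0896%). The promoters of Pcdhgc3 and Pcdha4 held neither word, and Pcdhgb7 and Pcdha5 were not among the promoters matched. No member held both words, and the matches are a description of these letters only.

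In the beta family 0 of 11 isoforms passed limma (0.562% of all transcripts did), and Pcdhb6 had the highest log2 ratio. Pcdhb6 (NCBI Gene 291653) had 1.01 FPKM (control) and 1.75 FPKM (BPA) in males and 0.99 and 1.82 FPKM in females. The BPA libraries were close to each other and well above the controls, which were also close to each other, with means of 1.0 ± 0.0141 and 1.79 ± 0.0495 FPKM (SD, n = 2). Its limma log2 ratio of 0.61, also the highest of any member, had a standard error of 0.263 and an adjusted p of 0.301, and it rested on 30.9, 53.0, 29.3 and 54.1 fragments in that order. Pcdhb5, the most abundant beta isoform, had 5.9, 6.13, 5.85 and 6.67 FPKM in that order, and both BPA libraries lay just above both controls. Pcdhb8, second in level among beta isoforms, had 4.32 FPKM (control) and 3.87 FPKM (BPA) in males and 4.21 and 3.45 FPKM in females, with the BPA libraries the lower ones. Pcdhb20 overlapped, at 4.1, 3.06, 3.99 and 4.36 FPKM. Among the 11 beta isoforms, 2 lay higher (18.7% of all transcripts did) and 3 lower (31.9%) in both BPA libraries and 6 overlapped. The others had means over the 4 libraries from 1.25 FPKM for Pcdhb21 to 3.63 FPKM for Pcdhb3.

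In the alpha family, Pcdha4 lay higher and Pcdha5 lower in both BPA libraries. Pcdha4 (NCBI Gene 116741) had 6.98 FPKM (control) and 9.17 FPKM (BPA) in males and 6.17 and 8.79 FPKM in females. Both BPA libraries lay above both controls, and the fold of 1.34 had an interval from 1.1 to 1.63 (limma adjusted p 0.169). Pcdha5 (NCBI Gene 393087) had 5.22 FPKM (control) and 3.08 FPKM (BPA) in males and 3.97 and 3.03 FPKM in females. Here the BPA libraries were close to each other and below both controls, whose mean was 4.59 ± 0.884 FPKM (SD, n = 2), with a log2 ratio of -0.51 and a limma adjusted p of 0.24. As shares of the alpha sum, Pcdha4 took 8.86 and 7.79% in the control and 11.97 and 10.85% in the BPA libraries of males and females, and Pcdha5 took 6.63 and 5.01% in control and 4.02 and 3.74% with BPA.

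Pcdhac2, a C-type isoform that takes no part in the random choice among variable exons, held the largest alpha share in every library, from 18.9 to 21.5%. It had 16.9 FPKM (control) and 15.3 FPKM (BPA) in males and 14.9 and 16.0 FPKM in females, and the treatments overlapped. Pcdha3 had 8.09, 9.47, 10.1 and 10.5 FPKM and Pcdha2 8.35, 8.12, 7.36 and 7.89 FPKM in the same order, both with overlap. Pcdha1 had 1.6 FPKM (control) and 2.53 FPKM (BPA) in males and 2.71 and 2.89 FPKM in females, so that the control male library stood below the other 3. Pcdha13 had 4.65 FPKM (control) and 2.6 FPKM (BPA) in males and 3.78 and 3.69 FPKM in females, with both BPA libraries below both controls, by a wide margin in males and a narrow one in females. Of the 14 tested alpha isoforms, 2 lay higher (18.7% of all transcripts did) and 3 lower (31.9%) in both BPA libraries, and 9 overlapped. The other alpha isoforms had means from 0.303 FPKM for Pcdhac1 to 5.64 FPKM for Pcdha7.

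**Figure D5:**
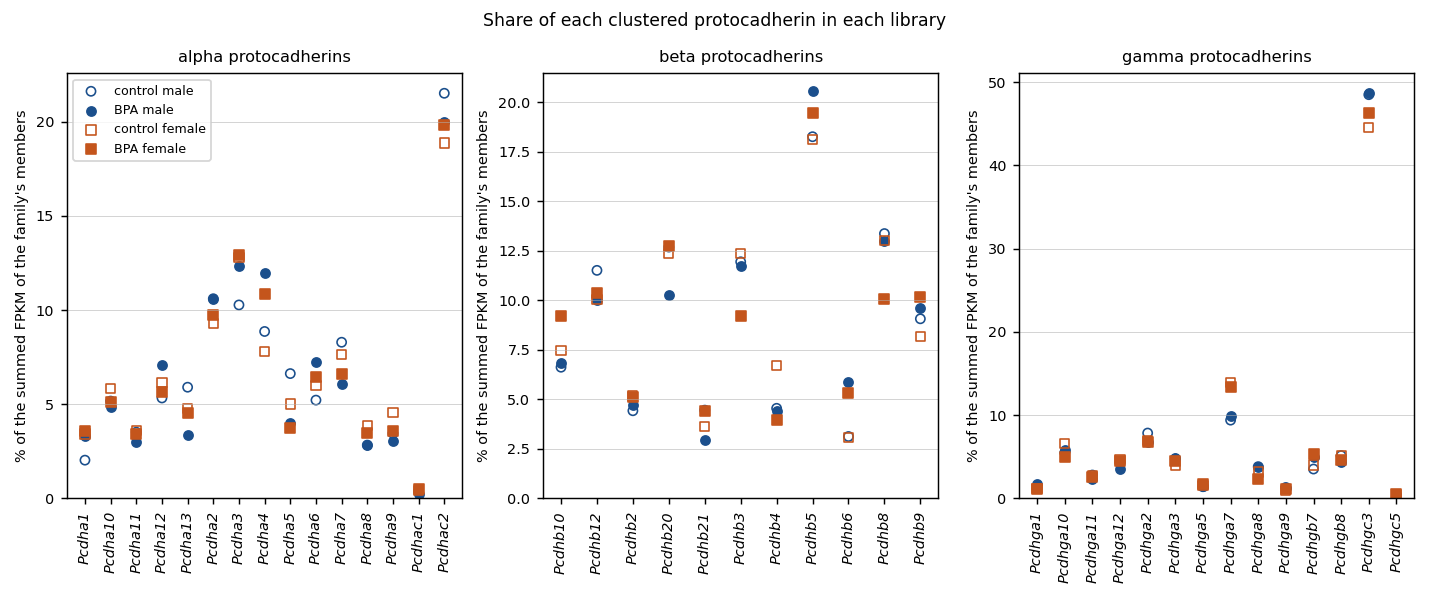
Share of each alpha, beta and gamma isoform in the summed FPKM of its family's members in each library, in percent, with open symbols for control, filled symbols for BPA, circles for males and squares for females. Pcdhac2 and Pcdhgc3 hold the largest alpha and gamma shares in every library, and the BPA libraries lie above the control libraries for Pcdha4, Pcdhb6 and Pcdhgb7.

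The gamma family was dominated by Pcdhgc3, and the member nearest to the threshold of all, Pcdhgb7, belongs to it. Pcdhgc3 (NCBI Gene 116782) had 94.8 FPKM (control) and 98.2 FPKM (BPA) in males and 87.9 and 100.2 FPKM in females, which is 44.5 to 48.7% of the gamma sum. Both BPA libraries lay above both controls by a fold of 1.09 with an interval from 0.978 to 1.21 (limma adjusted p 0.375). Pcdhgb7 (NCBI Gene 364844) had 6.9 FPKM (control) and 10.02 FPKM (BPA) in males and 7.92 and 11.6 FPKM in females. Its BPA libraries were the higher ones in both sexes, with means of 7.41 ± 0.721 and 10.8 ± 1.15 FPKM (SD, n = 2). The fold was 1.43 with an interval from 1.16 to 1.77, and the log2 ratio of 0.52 (standard error 0.126) had an unadjusted p of 0.0061 and an adjusted p of 0.141 by limma. When known genes alone were fitted, the adjusted p was 0.048, and Pcdhgb7 was then the single one of 59 members that passed, against 4.49% of the known genes (477 of 10632). On 299 to 491 fragments, the ratio of BPA to control was 1.45 (1.25 to 1.69) in males and 1.47 (1.28 to 1.7) in females.

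Pcdhga7, the second gamma isoform in level, stood apart by sex. It had 18.4 FPKM (control) and 19.95 FPKM (BPA) in males and 27.5 and 28.9 FPKM in females. Both female libraries stood above both male libraries, with female to male ratios of fragments of 1.5 in control and 1.45 with BPA (fragment test, adjusted p 4.2e-14 and 8.8e-13). It was the single one of 64 members that passed the fragment test between the sexes in both treatments (4.34% of all transcripts and 1.91% of known genes did), and with 1 library for each sex and treatment the sex cannot be told apart from the pups taken. Pcdhga2 had 15.4, 13.7, 13.7 and 14.7 FPKM in that order and overlapped. Of the 13 tested gamma isoforms, 4 lay higher (18.7% of all transcripts did) and 1 lower (31.9%) in both BPA libraries and 8 overlapped. The other gamma isoforms had means from 0.933 FPKM for Pcdhgc5 to 11.6 FPKM for Pcdhga10.

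The solitary protocadherins among the members were mid-level genes with small ratios, of which those of Pcdh20 and Pcdh11x were the largest. The transcript similar to OL-protocadherin, which has no Gene ID, is given below. Among delta 1 members, Pcdh11x (NCBI Gene 317204), an X-linked protocadherin, had 11.5 FPKM (control) and 9.92 FPKM (BPA) in males and 12.2 and 8.82 FPKM in females. Both BPA libraries lay below both controls, by a fold of 0.8 with an interval from 0.67 to 0.955 (limma unadjusted p 0.0212, adjusted p 0.214). Pcdh9 had 13.4, 13.8, 14.7 and 13.4 FPKM in that order, and overlapped. Pcdh7 had 14.1 FPKM in both control libraries, 11.3 in BPA male and 15.4 in BPA female, so that the BPA libraries lay on either side of the controls.

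The delta 2 members overlapped between treatments, Pcdh18 excepted. Pcdh17, which takes part in axon extension and synapse organization, had 24.4 FPKM (control) and 22.9 FPKM (BPA) in males and 22.8 and 23.1 FPKM in females. Pcdh19, an X-linked gene of inherited epilepsy, had 15.7, 14.8, 16.7 and 16.6 FPKM in the same order, and Pcdh8, known from activity-dependent removal of N-cadherin at synapses, had 14.2, 14.6, 16.7 and 14.7 FPKM. For these 3 the limma log2 ratios lay between -0.07 and -0.03, and the smallest adjusted p of the 4 delta 2 members was 0.636. Pcdh18, the remaining one, lay slightly lower in both BPA libraries with a log2 ratio of -0.10.

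Pcdh20 (NCBI Gene 306081) had 3.83 FPKM (control) and 2.85 FPKM (BPA) in males and 3.89 and 2.59 FPKM in females. The controls were nearly equal and both BPA libraries lay below them, with means of 3.86 ± 0.0424 and 2.72 ± 0.184 FPKM (SD, n = 2). Its fold of 0.738 had an interval from 0.557 to 0.978, with an unadjusted p of 0.0385 and an adjusted p of 0.26 by limma. Pcdh15, a partner of Cdh23 in hair cells, had 2.37, 2.51, 3.1 and 3.05 FPKM in that order, and the treatments overlapped. Pcdh12, a protocadherin of endothelium, had 1.23 FPKM (control) and 1.16 FPKM (BPA) in males and 1.49 and 1.0 FPKM in females, with the BPA libraries lower and an adjusted p of 0.711. The endothelial marker sums given above were lower in both BPA libraries as well, and their part in Pcdh12 was not tested.

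Whether the ratio of BPA to control differed between males and females was asked of the 63 members with at least 10 fragments in every library. When libraries were allowed a coefficient of variation of 0.1, a value assumed and not estimated, 0 of 63 members passed (1.52% of all transcripts and 0.13% of known genes). With counting error alone 4 of 63 passed (9.59% and 6.56%), namely Pcdh7, Pcdha13, Pcdhga10 and Pcdhgc3. The female minus male difference of the log2 ratios was 0.45 for Pcdh7 (adjusted p 3.1e-05), 0.80 for Pcdha13 (0.0061), -0.43 for Pcdhga10 (0.0172) and 0.14 for Pcdhgc3 (0.0338). In Pcdh7 and Pcdha13 the BPA male library was the low one, and in Pcdhga10 the control female library was the high one, at 13.1 FPKM against 10.7, 11.8 and 10.7 FPKM in the others.

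The genes that work with cadherins were counted in the same limma fit, in which 0.562% of all transcripts passed. Of the catenins and linkers, which tie cadherins to actin, 0 of 8 passed, and both treatments overlapped for Ctnnb1 (beta-catenin, 178 to 190 FPKM). Ctnnd2, the delta-catenin of neurons, had 83.6, 88.0, 85.5 and 87.8 FPKM, slightly higher in the BPA libraries (adjusted p 0.628). Ctnna2, the neuronal alpha-catenin, had 57.0 FPKM (control) and 67.2 FPKM (BPA) in males and 56.7 and 66.8 FPKM in females, the BPA libraries being higher by a log2 ratio of 0.24 with an adjusted p of 0.133. Ctnnd2 and Ctnna2 were 2 of 8 that lay higher in both BPA libraries (18.7% of all transcripts did), and 4 of 8 lay lower in both (31.9%). The log2 ratios of the 4 were -0.57 for Vcl (vinculin, adjusted p 0.156), -0.25 for Ctnna1 (0.208), -0.24 for Jup (plakoglobin, 0.227) and -0.19 for Ctnnd1 (p120-catenin, 0.261), and 6 of the 8 catenins and linkers had a ratio under 0 (58.1% of all transcripts). Of the proteases that shed or mature cadherins, 0 of 8 passed, and 6 lay lower in both BPA libraries (31.9% of all transcripts did), among them Psenen (52.1, 47.1, 49.9 and 43.1 FPKM) and Adam10 (38.2, 32.5, 37.7 and 35.1 FPKM). Of the kinases and actin regulators that act below protocadherins, 0 of 10 passed. Wasf1, an activator of actin branching, had 129.9, 142.9, 123.2 and 139.0 FPKM (adjusted p 0.254), and its complex partner Nckap1 had 138.0, 118.3, 135.8 and 123.4 FPKM (adjusted p 0.201), the BPA libraries being higher for the first and lower for the second. Of the factors that choose promoters in the cluster, 0 of 7 tested passed, 4 lay higher (18.7% of all transcripts did) and 2 lower (31.9%) in both BPA libraries, and the median log2 ratio was 0.07. Ctcf, Smc3, Stag1 and Wiz were the higher ones, with log2 ratios of 0.07 to 0.14 and adjusted p of 0.319 or more. The cohesin subunit Rad21 had 75.6, 70.9, 70.9 and 71.4 FPKM and overlapped. Smc1a, another subunit and one of the lower ones, had 47.2 and 47.8 FPKM in the controls and 40.3 and 42.0 FPKM with BPA in males and females (adjusted p 0.193).

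Among other genes of the cadherin superfamily, 1 of 11 passed (0.562% of all transcripts did). Of the 11, 4 lay higher (18.7% of all transcripts did) and 3 lower (31.9%) in both BPA libraries. Cdhr1, a photoreceptor and olfactory bulb cadherin, fell, with 41.1, 10.8, 44.5 and 9.29 FPKM in the 4 libraries (log2 ratio -2.04, limma adjusted p 0.00834), and is one of the olfactory bulb markers counted above. Clstn1, the most abundant of them, lay between 164 and 178 FPKM. Some transcripts annotated as cadherins, protocadherins or cadherin-related proteins were assembled without a Gene ID and were therefore no members. One was annotated as protocadherin-15, whose gene Pcdh15 is a member. Of 14 such transcripts, 12 could be tested and 0 passed (0.562% of all transcripts did). Of the 12, 4 had a log2 ratio above 0 and 8 below it (58.1% of all transcripts). The lowest was -0.85, of a transcript annotated as protocadherin-23-like (limma adjusted p 0.24). The longer one similar to cadherin 4 (R-cadherin) had 41.4 FPKM (control) and 49.7 FPKM (BPA) in males and 43.1 and 49.9 FPKM in females. The BPA libraries lay above the controls (log2 ratio 0.23, adjusted p 0.155), and a shorter one annotated as cadherin-4-like had 15.7, 19.1, 13.8 and 20.5 FPKM in that order (log2 ratio 0.42, adjusted p 0.131). The transcript similar to OL-protocadherin had 44.7, 46.5, 49.1 and 38.5 FPKM, with the BPA female library the low one.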

How the data were processed

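RNA of the 4 libraries was enriched with oligo(dT), sequenced on an Illumina HiSeq instrument and aligned by the authors with Bowtie 2 to Rnor_6.0, and expression was calculated with RSEM. The labels also name HISAT, and versions are not given in the sources used here. The deposited values are FPKM, scaled by the authors for length and depth and rounded to 2 decimals. The transcripts listed are those of each sex, with no gaps between its libraries.

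Members were found by symbol. The members, the gene lists (other cadherin superfamily genes, catenins and linkers, proteases, signaling partners, promoter choice factors and markers of meninges, endothelium, striatum, olfactory bulb, cortical neurons, interneurons, oligodendrocyte lineage and choroid plexus) and the tests were chosen with earlier results of these data known. Named with a value in every library were the 3 most abundant members of each family, members called or past 2-fold, and the 5 highest and 5 lowest limma log2 ratios. Of the other lists, the genes called or otherwise the 2 most abundant were named. Cdh15, Cdh19, Pcdh18, Pcdhga10 and the non-members given with values outside that rule were chosen after their values were seen. Log2 ratios used a pseudocount of 0.5, so they understate changes of low genes.

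The main test was limma 3.58.1 (R 4.3.3) with treatment as the only term, a trend in the prior variance and 2 residual degrees of freedom. Fragments per library were estimated from FPKM steps with an effective length of length minus 60 bases, and 86.2 to 88.1% of scarce transcripts came within 0.1 of a whole number. On simulated data of 13178 transcripts, limma called 94 of 97 transcripts changed by 1 on the log2 scale, 103 of 103 changed by 2 and 27 of 12978 left unchanged. The simulation assumed a fixed spread between libraries and no sex difference, and set changes only at a mean of 2 FPKM or more. These counts therefore do not give the power of the test on the real libraries. There Ptgds, with a log2 ratio of -1.61, had a limma adjusted p of 0.0726 and did not pass. The fragment test was an exact two-sided conditional binomial test and the sex difference a normal approximation, each with Benjamini-Hochberg adjustment. Python 3.11.15 with numpy 2.4.6, pandas 2.3.3, scipy 1.17.1, statsmodels 0.14.6 and matplotlib 3.10.9 did the rest. Promoters came from RefSeq, build GRCr8, and coordinates of Rnor_6.0 were not used here.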

Additional observations from a re-analysis of the deposited data

How the results depend on the processing

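Across the alternatives, 0 members passed limma with a pseudocount of 0.1, 1 or 5, without a filter, at a mean FPKM of at least 5, with median centering and without a trend, while the number of all transcripts that passed ran from 0 to 164. With known genes alone 477 transcripts passed, against 74, and 1 member did, Pcdhgb7, which was higher (1 higher, 0 lower). With sex as a replicate block 0 members passed (smallest adjusted p 0.0959) and 86 of all transcripts did. The labels number no replicates, so the block pairs libraries of a sex only. Leaving out 1 library at a time gave 0 members and 0 to 6 transcripts. The lone library of an arm was then assumed to vary like the other arm. Without 1 library the median log2 ratio ran from -0.0632 to -0.0106 for cadherins, from -0.0909 to 0.0598 for clustered and from -0.125 to -0.0647 for solitary protocadherins. The clustered median was 0.0598 without the BPA male library and -0.0909 without the BPA female library. The solitary median, -0.0786 as reported, was -0.0149 with median centering. At a mean FPKM of at least 5 the cadherin median was 0.0619 and the clustered one 0.0037, with median centering they were 0.0582 and 0.0394, and without a filter the cadherin median was -0.0701. Past 2-fold, a pseudocount of 0.1 gave 1 member in males (Cdh19) and 1 in females (Cdh1), a threshold of 0.5 gave 7 and 6, and the fragment test gave 14 and 14. The sex difference with counting error alone gave 4. The cause of these shifts was not tested. Of 392 alternative values of the single log2 ratios named, 1 passed the threshold, that of Pcdhgb7, and 28, of 16 members that passed in no fit, had the other sign, 22 without 1 library and 6 with median centering, none of them beyond an absolute value of 0.192. Cdh1, Cdh3 and Pcdhb6 rested on few fragments, which widens their counting intervals, and with 1 library per sex and treatment no spread between animals within a sex could be estimated.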
